A study of Mus musculus with 2 samples.

Results

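The proteasome subunit genes of mouse hematopoietic stem and progenitor cells were described across 2 single-cell RNA libraries and across cell groups within them. Members were every gene whose symbol begins with Psma, Psmb, Psmc, Psmd, Psme, Psmf or Psmg followed by a digit, which gave 50 of the 32285 genes in the matrices. By role they comprised 7 subunits of the core alpha ring, 7 of the core beta ring, 3 immunoproteasome subunits, 9 subunits of the base, 8 of the lid, 5 activators, 1 inhibitor, 7 assembly chaperones, 2 core subunits restricted to testis or thymus, and Psmc3ip, a meiotic recombination factor that shares the symbol pattern but is no part of the proteasome. The alpha ring, beta ring, base and lid together are called the 26S subunits, 31 genes.

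The study profiled hematopoietic stem cells (HSCs) of wild-type C57Bl6 mice, taken from bone marrow at an age of 8 weeks, with the 10x Genomics droplet kit; it reads the 3′ end of captured RNA and gives each molecule an identifier (UMI). The library labelled LT-HSC (long-term HSC) held cells sorted as lineage-negative, Sca-1-positive, Kit-positive (LSK) with the surface phenotype CD34- CD150+ CD48- Flk2-. The library labelled ST-HSC (short-term HSC) held LSK cells that were CD34- CD150+ CD48+, with no Flk2 gate given. There was 1 library per group, and the number of mice behind each is not given in the sources used here, so no difference below has a replicate check and no p-value was computed.

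The proteasome degrades proteins tagged with ubiquitin. Its core particle is a barrel of stacked rings in which the beta subunits Psmb5, Psmb6 and Psmb7 cut the chain, and its regulatory particle caps the barrel: the base, with the ATPases Psmc1 to Psmc6, unfolds the substrate, and the lid, with the deubiquitinase Psmd14, removes the tag. Immune cells and cells that receive interferon replace the catalytic subunits by Psmb8, Psmb9 and Psmb10, which gives the immunoproteasome, a form known for making peptides for class I antigen presentation. Other caps, the activators PA28 (Psme1 with Psme2, or Psme3) and PA200 (Psme4), open the barrel without ubiquitin. In blood stem cells a low rate of protein synthesis and a tight balance of protein turnover are well known, and erythroid maturation is known to involve large-scale protein removal.

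Cells were kept with 1000 or more genes and a mitochondrial share of UMIs below 10%. That left 2722 of 2938 barcodes in the LT-HSC library, with 64673871 UMIs, and 6648 of 7586 in the ST-HSC library, with 111783180 UMIs, and 6 barcodes occurred in both. RNA of the gate genes followed the ST-HSC label in part. Cd48 was higher there, at 74.7 CPM (UMIs per 1000000) against 35.3 CPM in LT-HSC. Slamf1, which encodes CD150, had 26.5 CPM in LT-HSC against 1.26 CPM in ST-HSC, and Cd34 had 29.2 CPM against 242 CPM, although both gates ask for CD34-negative, CD150-positive cells. The Cd48 RNA of LT-HSC was measured although its gate asks for CD48-negative cells. Every statement about LT-HSC or ST-HSC therefore refers to the library with that label.

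Cell groups were ranges of 1 gene each, per 10000 UMIs of a cell, and are not cell types: Hlf-high at 3 or more (Hlf is a stem cell transcription factor), Car1-high at 50 or more (carbonic anhydrase 1, an early erythroid gene), Pf4-high at 10 or more (platelet factor 4, a megakaryocyte gene), and Dntt-positive at 1 or more with at least 2 Dntt UMIs (terminal transferase, an early lymphoid gene). LT-HSC held 774 Hlf-high, 458 Car1-high and 246 Pf4-high cells and 1 Dntt-positive cell. ST-HSC held 3107 Hlf-high, 805 Dntt-positive, 42 Car1-high and 4 Pf4-high cells. Cells past several of the cuts, 8 for LT-HSC and 711 for ST-HSC, and cells past none, 1235 and 1979, were in no group. Of these 711 cells, 704 were past both the Hlf and the Dntt cut. The cuts fall on a continuum: 223 LT-HSC cells lay within 1.5 times above the Car1 cut and 245 between it and a value of 25. Summed over 11 erythroid markers, LT-HSC Car1-high cells were at 11997 CPM and Hlf-high cells at 1078 CPM, and over 10 megakaryocyte markers Pf4-high cells were at 6900 CPM. The lymphoid list was at 2543 CPM in the Dntt-positive cells of ST-HSC and 603 CPM in its Hlf-high cells. A list of 10 HSC markers was at 2803 CPM in LT-HSC Hlf-high and 170 CPM in LT-HSC Car1-high cells. Each list includes the gene that chose the group (Car1 alone was at 8265 CPM of the erythroid sum and Pf4 at 5616 CPM of the megakaryocyte sum), so these sums are no independent check.

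Proteasome genes took 0.911% of all UMIs of the LT-HSC library and 0.690% of those labelled ST-HSC. Within LT-HSC the share was 0.675% in Hlf-high, 0.901% in Pf4-high and 1.09% in Car1-high cells. Within ST-HSC it was 0.599% in Hlf-high, 0.654% in Dntt-positive and 0.972% in Car1-high cells. The order was the same when every cell was thinned to 5000 UMIs, which removes the effect of depth on a count per cell. The median cell then held 33 proteasome UMIs in LT-HSC Hlf-high, 45 in Pf4-high and 54 in Car1-high cells. In ST-HSC the medians were 29 in Hlf-high, 31 in Dntt-positive and 51 in Car1-high cells.

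**Figure D1:**
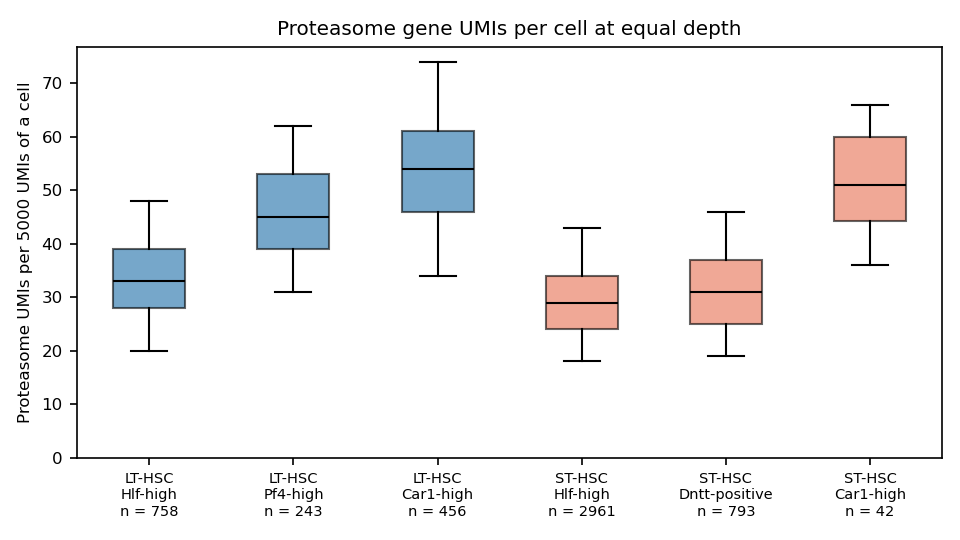
Proteasome gene UMIs per cell (vertical axis) after thinning each cell to 5000 UMIs, for the cell groups of both libraries with the number of cells that reached that depth. Boxes span the quartiles, lines mark medians and whiskers run from the 5th to the 95th percentile of cells. The LT-HSC medians run from 33 in Hlf-high to 54 in Car1-high cells, and the 42 ST-HSC Car1-high cells have a median of 51.

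The first comparison asked how proteasome RNA in Car1-high cells differed from that in Hlf-high cells of the LT-HSC library. All 31 subunits of the 26S proteasome were higher in Car1-high cells, and the members outside it moved unevenly: PA200 (Psme4) was lower, 1 of the 3 immunoproteasome subunits (Psmb10) was called higher, and PA28 alpha (Psme1) had a ratio of 1.08. A gene was called higher when its CPM was at least 25% above, and lower when at least 20% below (a ratio of 0.8), that of the reference cells, among genes with a mean of at least 5 CPM over the compared groups. Of 48 members that passed this filter, 41 were higher and 2 lower, while 24.3% of all 10265 genes that passed were higher and 54.0% lower. The median log2 ratio was 0.80 over members and -0.44 over all genes.

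**Figure D2:**
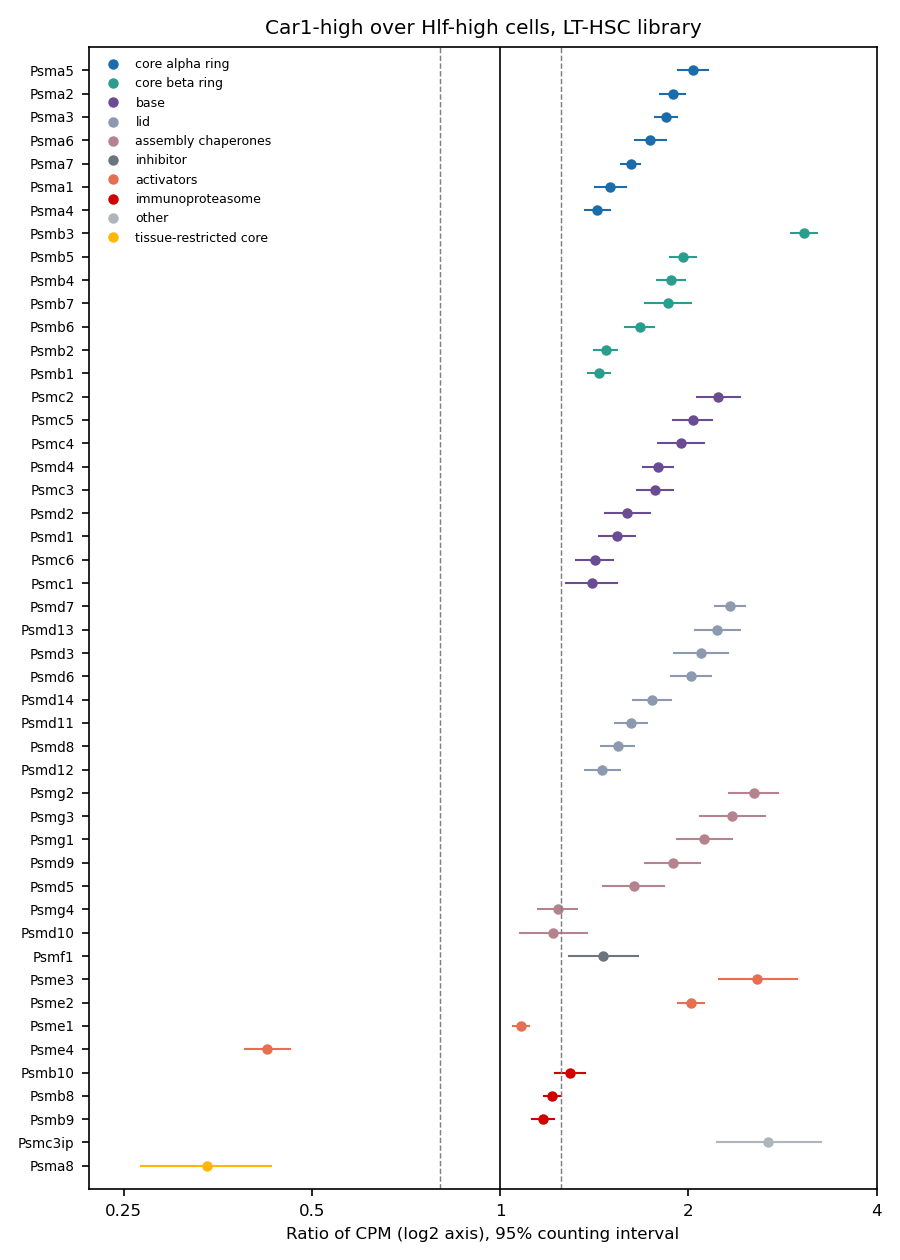
Ratio of CPM in Car1-high over Hlf-high cells of the LT-HSC library for the 48 members that passed the filter, on a log2 axis, coloured by role. Points are ratios, bars are 95% counting intervals, and dashed lines mark the limits of 25% higher and 20% lower; Psmb3 is at 3.06, Psme4 at 0.42 and Psma8 at 0.34.

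In the beta ring, which holds the catalytic sites, all 7 subunits were higher, by ratios from 1.44 (Psmb1) to 3.06 (Psmb3). Psmb3, a structural beta subunit, was at 179.5 CPM (95% counting interval 172 to 187) in Hlf-high, 351 CPM (338 to 365) in Pf4-high and 549 CPM (538 to 559) in Car1-high cells. The ratio of Car1-high over Hlf-high cells was 3.06 (2.91 to 3.21), the highest of any member. Psmb5, the chymotrypsin-like subunit, went from 190.0 CPM in Hlf-high to 373 CPM in Car1-high cells, a ratio of 1.96 (1.87 to 2.06). Psmb6, the caspase-like subunit, and Psmb7, the trypsin-like subunit, had ratios of 1.67 (1.58 to 1.76) and 1.85 (1.70 to 2.02). In the alpha ring, which gates the barrel, all 7 were higher, from 1.43 (Psma4) to 2.03 (Psma5). Intervals here cover counting error only; they do not hold the variation between libraries or mice.

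The regulatory particle followed the core. All 9 base subunits were higher, from 1.40 (Psmc1) to 2.23 (Psmc2, an ATPase), and all 8 lid subunits were higher, from 1.45 (Psmd12) to 2.33 (Psmd7). Psmd7, the lid partner of the deubiquitinase, was at 148 CPM in Hlf-high and 345 CPM in Car1-high cells. Psmd14, the deubiquitinase itself, had a ratio of 1.75 (1.63 to 1.87). Psmd12 and Psma2 overlap another annotated gene on the same strand, and their counts are uncertain to that extent.

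Of the 7 assembly chaperones, which help the rings and the base form, 5 were higher. Psmg2, a chaperone of the alpha ring, rose the most, from 51.9 CPM in Hlf-high to 132 CPM in Car1-high cells, a ratio of 2.54 (2.32 to 2.79). Its partner Psmg1 had a ratio of 2.12 (1.92 to 2.35). The remaining members, Psmg4 at 1.23 (1.15 to 1.33) and Psmd10 at 1.22 (1.08 to 1.38), stayed within the limits. Psmf1, the inhibitor PI31, was higher at 1.46 (1.29 to 1.66).

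The activators split. Psme3, the nuclear PA28 gamma, was at 20.9 CPM in Hlf-high and 53.8 CPM in Car1-high cells, a ratio of 2.58 (2.24 to 2.98). Psme2, PA28 beta, was higher at 2.02 (1.92 to 2.12), while its partner in the same ring, Psme1, PA28 alpha, was at 583 CPM in Hlf-high and 629 CPM in Car1-high cells, a ratio of 1.08 (1.05 to 1.11). Psme4, PA200, went the other way: 121 CPM (115 to 128) in Hlf-high, 79.8 CPM (73.4 to 86.6) in Pf4-high and 51.5 CPM (48.4 to 54.8) in Car1-high cells. Its intervals did not overlap between the groups, and the ratio of Car1-high over Hlf-high cells was 0.42 (0.39 to 0.46). Psme2b, a near-identical copy of Psme2 that lies within other annotated genes, failed the filter at 1.42 CPM in Hlf-high and 2.34 CPM in Car1-high cells, and reads of Psme2 and Psme2b may not be fully separated.

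The 3 immunoproteasome subunits moved less than the subunits they replace. Psmb8 was at 510 CPM (497 to 523) in Hlf-high and 617 CPM (606 to 628) in Car1-high cells, a ratio of 1.21. Psmb9 had a ratio of 1.17 (1.12 to 1.22). Psmb10 was the 1 subunit of the 3 that was called higher, at 1.29 (1.22 to 1.37). That count depended on the setting: all 3 were called higher with the mean of per-cell CPM, and 0 with call limits of 1.5. All 3, like Psme1, overlap a gene on the opposite strand (Psmb9 the peptide transporter gene Tap1). Whether the counting used strand is not given in the sources used here. Such overlaps are not particular to these genes. Psmb7, which Psmb10 replaces, overlaps Nek6 on the opposite strand. Psma3, Psma4, Psma5, Psmc3, Psmd1, Psmd3 and Psmd13 are among the other members with an overlap of this kind.

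Among the tissue-restricted subunits, Psma8, the alpha subunit of the testis proteasome, was low but measurable, at 17.0 CPM (14.6 to 19.6) in LT-HSC Hlf-high and 5.76 CPM (4.74 to 6.92) in Car1-high cells, a ratio of 0.34 (0.27 to 0.43). Psmb11, the thymus subunit, had 3 UMIs over all LT-HSC cells and 6 over all cells labelled ST-HSC, and failed the filter. Psmc3ip, outside the proteasome, was higher at 2.68 (2.22 to 3.26).

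Promoter sequence was described because 31 members were higher together. RefSeq promoter windows for GRCm38.p6, from 250 bases before to 50 after the start site, matched 42 of 50 members. The core of the antioxidant response element, TGACNNNGC on either strand, which is the class of site NRF1 binds, was in 14.3% of the 42 members and 14.0% of all 27025 genes in the table. CCAAT on either strand was in 35.7% and 41.1%. The interferon stimulated response element, searched on both strands, was in 11.9% and 3.99%, that is 5 members (Psmb3, Psmd4, Psmd9, Psmg4 and Psme1), and none of them an immunoproteasome subunit. The gamma activated site, TTCNNNGAA, was in 7.14% and 9.55%, and was present in Psmb8. Of the 31 subunits of the 26S, 25 had a window. Their shares were 16.0% for the antioxidant response element core and 40.0% for CCAAT. The interferon stimulated response element was in 8.0% of them (Psmb3 and Psmd4) and the gamma activated site in 4.0%. A match describes letters in a window and shows no binding. The upstream sequences of the member with the highest ratio (Psmb3), of a catalytic subunit with an antioxidant response element core (Psmb5) and of the activator that was lower (Psme4) are shown 5′ to 3′ on the strand of the gene, with motif matches in capitals.
Psmb3, chr11:97703234-97703398, plus strand: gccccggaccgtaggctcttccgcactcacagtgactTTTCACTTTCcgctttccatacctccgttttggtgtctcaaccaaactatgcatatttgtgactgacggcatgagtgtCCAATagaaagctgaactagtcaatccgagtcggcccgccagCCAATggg
Psmb5, chr14:54618023-54618195, minus strand: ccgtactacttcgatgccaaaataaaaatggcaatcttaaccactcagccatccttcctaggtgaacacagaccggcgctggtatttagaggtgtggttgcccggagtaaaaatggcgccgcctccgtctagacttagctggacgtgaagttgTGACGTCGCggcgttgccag
Psme4, chr11:30771575-30771725, plus strand: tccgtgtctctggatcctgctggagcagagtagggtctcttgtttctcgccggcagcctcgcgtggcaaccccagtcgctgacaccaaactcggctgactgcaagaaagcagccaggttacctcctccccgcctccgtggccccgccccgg
In Psmb3 the capitals mark, in order, the interferon stimulated response element, read here on the opposite strand, and 2 CCAAT boxes. In Psmb5 they mark the antioxidant response element core. The printed stretch of Psme4 held none of the 4 motifs; its window has an antioxidant response element core nearer the start site.

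The scaling matters to the size of these ratios. Car1-high cells had 54.0% of all genes lower when scaled by total UMIs. With TMM factors from edgeR the median log2 ratio of all genes moved from -0.44 to 0.21, and with median-of-ratios factors to 0.29. The share of called genes that were higher moved from 31.04% to 58.42% and 61.52%. Under both of these scalings all 31 subunits of the 26S were still higher and Psme4 and Psma8 still lower, while the 3 immunoproteasome subunits were all higher, with Psmb8 at a log2 ratio of 0.93 under TMM against 1.62 for Psmb5. A change of scaling shifts all genes of a comparison by the same amount, so the distance between 2 members is not affected by it. By that shift Psme1, Psmg4 and Psmd10, which lay within the limits when scaled by total UMIs, would be higher as well.

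Depth and cell cycle differed between the groups. The median cell held 12125.5 UMIs in Hlf-high and 39551.5 in Car1-high cells, and 4.88% of Hlf-high against 68.9% of Car1-high cells had at least 0.4% of their UMIs in the S and G2/M phase lists. Among cells under that value, 142 Car1-high and 721 Hlf-high, 31 of 31 subunits of the 26S were higher, with a median log2 ratio of 0.77, beside 23.3% of all genes and their median of -0.42. Among cells with 10000 to 25000 UMIs, 104 and 435, 27 of 31 were higher, with a median log2 ratio of 0.57, beside 23.1% of all genes and their median of -0.37, and Psme4 had a log2 ratio of -0.95. In that depth range the 3 immunoproteasome subunits were all higher, with a median log2 ratio of 0.55, so their gap to the 26S median was not seen there. Among cells under 0.4% in the cell cycle lists these 3 were also all higher. Their median log2 ratio there was 0.45, below the 26S median of 0.77. Both subsets were chosen after seeing the data.

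The same contrast was then read in the ST-HSC library. Its 42 Car1-high cells fell short of the 50 set as a minimum, so cuts of 25 Car1 and 1.5 Hlf UMIs per 10000 were used for both libraries, a choice made after seeing the data. This gave 683 Car1-high and 1022 Hlf-high cells in LT-HSC and 211 and 3158 in ST-HSC. These groups were not alike between LT-HSC and ST-HSC. In Car1-high cells the erythroid list was at 10483 and 9355 CPM, of which Car1 was 7071 and 4100 CPM. Their neutrophil-monocyte list was at 19.1 and 189 CPM. In Hlf-high cells the lymphoid list was at 45.7 and 523 CPM. Of 48 members that passed in LT-HSC, 41 were higher and 2 lower, against 23.7% and 51.4% of all genes. Of 47 that passed in ST-HSC, 42 were higher and 2 lower, against 28.6% and 47.4% of all genes. All 31 subunits of the 26S were higher in each library, with medians of 0.75 in LT-HSC and 0.89 in ST-HSC on the log2 scale. In LT-HSC cells with 10000 to 25000 UMIs, 21 of 31 were higher with these cuts, beside 21.5% of all genes. Their median there was 0.42. Median UMIs in ST-HSC were 11437 in Hlf-high and 38982 in Car1-high cells. Too few ST-HSC cells remained in that depth range or under 0.4% in the cell cycle lists. The part of depth and cycling in the ST-HSC 26S ratios was therefore not tested.

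Several members had like ratios in both libraries. Psmb3 had ratios of 2.54 (2.45 to 2.64) in LT-HSC against 2.64 (2.54 to 2.74) in ST-HSC, and Psme3 of 2.39 (2.12 to 2.70) and 2.64 (2.41 to 2.90). Psme4 was lower in both, from 117 to 59.2 CPM in LT-HSC, a ratio of 0.51 (0.47 to 0.54), and from 134 to 83.5 CPM in ST-HSC, a ratio of 0.62 (0.58 to 0.68). The lid subunit Psmd7 had the highest lower bound in ST-HSC, at 2.75 (2.64 to 2.86), beside the base chaperone Psmd9 at 2.768 (2.549 to 3.004) and the lid subunit Psmd3 at 2.74 (2.54 to 2.95); in LT-HSC these were at 2.10, 1.75 and 1.86. Across the 47 members that passed in both libraries the log2 ratios had a Pearson r of 0.785 and a Spearman rho of 0.742, against 0.916 and 0.907 across all 9801 genes. Genes are not independent replicates, and these values describe the 2 libraries only.

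The immunoproteasome differed between the libraries. Psmb8 was at 522 CPM in Hlf-high and 626 CPM in Car1-high cells of LT-HSC, a ratio of 1.20 (1.17 to 1.23). In ST-HSC it was at 461 CPM in Hlf-high and 255 CPM in Car1-high cells, a ratio of 0.55 (0.53 to 0.58). Psmb9 had ratios of 1.18 (1.14 to 1.22) in LT-HSC against 0.80 (0.76 to 0.85) in ST-HSC, and Psme1 of 1.08 (1.05 to 1.11) and 0.93 (0.89 to 0.96). Psmb10 did not follow them, with 1.26 (1.20 to 1.32) and 1.27 (1.20 to 1.35). With TMM or median-of-ratios factors Psmb8 remained lower in ST-HSC Car1-high cells, at log2 ratios of -0.57 and -0.51, whereas Psmb9 moved to -0.03 and 0.03 and Psme1 turned to 0.18 and 0.24. The median Car1-high cell in ST-HSC held 38982 UMIs, and 87.0% of these cells were past 0.4% in the cell cycle lists, against 33745 UMIs and 64.2% in LT-HSC. Fewer than 50 ST-HSC Car1-high cells remained under 0.4% or between 10000 and 25000 UMIs, so the part of cycling and depth in the Psmb8 result was not tested. Nor was the part of the marker differences between the groups of the 2 libraries.

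Levels were then followed over bins of Car1, leaving out cells past the Pf4 or Dntt cut. In LT-HSC the summed 26S subunits were at 5155 CPM in the 1386 cells under 1 Car1 UMI per 10000, 5681 CPM in the bin from 10 to 25, 6641 CPM from 25 to 50, 7812 CPM from 50 to 100 and 8436 CPM in the 104 cells at 100 or more. Each bin was above the one before it. In ST-HSC the sum was at 4500 CPM in the lowest bin, 7173 CPM already in the bin from 10 to 25, and 7789 and 7611 CPM in the bins above. Psme4 went down over the same bins, from 106 to 41.8 CPM in LT-HSC and from 122 to 79.2 CPM in ST-HSC. Psmb8 stayed between 570 and 647 CPM in every LT-HSC bin, while in ST-HSC it was at 532 CPM in the lowest bin, 264 CPM from 10 to 25 and 245 CPM from 25 to 50. Depth differed between the bins: median UMIs per cell were 13688.5 in the lowest and 38155.5 in the highest bin of LT-HSC, with the lowest value, 10270, in the bin from 1 to 10. In ST-HSC they were 12234 in the lowest bin and between 34004 and 39115 from 10 upward. The part of depth in these levels was not tested.

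**Figure D3:**
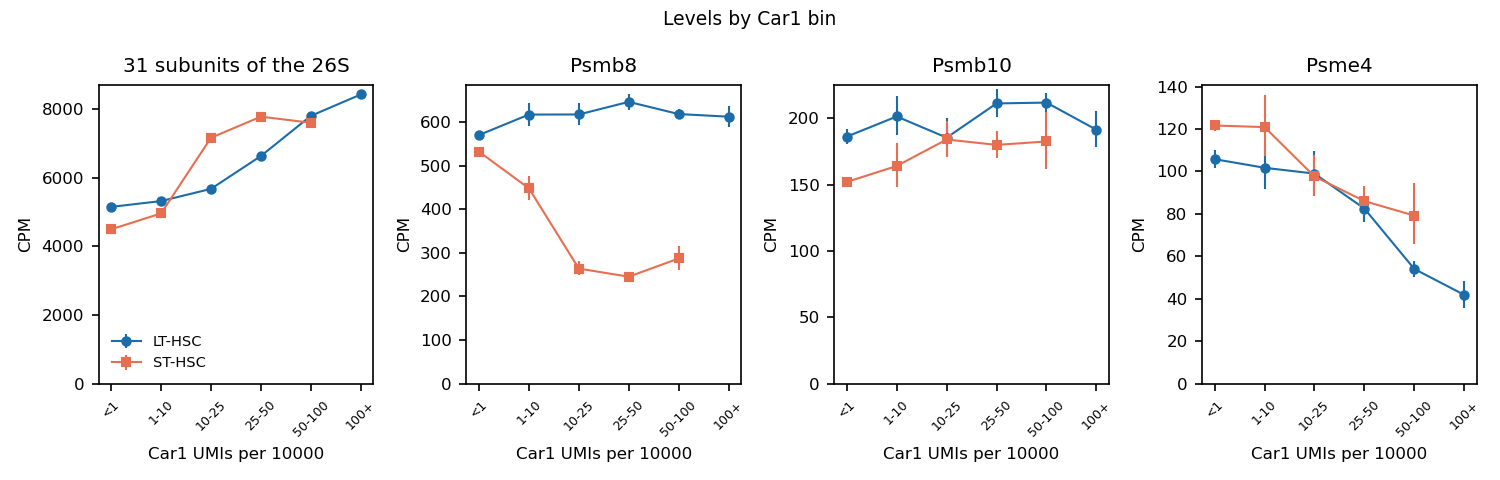
CPM of the summed 26S subunits, Psmb8, Psmb10 and Psme4 (vertical axes, from 0) over bins of Car1 UMIs per 10000 (horizontal axes) in LT-HSC (circles) and ST-HSC (squares), with 95% counting intervals. The highest bin held no ST-HSC cell; the 26S sum runs from 5155 to 8436 CPM in LT-HSC, and Psmb8 in ST-HSC drops by the bin from 10 to 25.

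The balance between the paired catalytic subunits was taken as UMIs of each immunoproteasome subunit per UMI of the subunit it replaces. The ratio depends on how well each 3′ end is captured, so it is compared only between cell groups. The groups of LT-HSC differ in depth, with medians of 12125.5 UMIs per cell in Hlf-high, 24360 in Pf4-high and 39551.5 in Car1-high cells. In ST-HSC the medians were 11200 in Hlf-high, 15566 in Dntt-positive and 38616 in Car1-high cells. Psmb8 per Psmb5 was 2.68 (2.55 to 2.82) in LT-HSC Hlf-high, 1.88 (1.79 to 1.98) in Pf4-high and 1.66 (1.61 to 1.71) in Car1-high cells. In ST-HSC it was 2.65 (2.58 to 2.72) in Hlf-high, 2.97 (2.84 to 3.11) in Dntt-positive and 0.94 (0.82 to 1.07) in Car1-high cells. For this pair Hlf-high cells of both libraries thus had overlapping intervals, and Car1-high cells had the lowest value in each library. The ST-HSC Car1-high values rest on 42 cells, fewer than the 50 set as a minimum for the ratio comparisons. Psmb9 per Psmb6 was 1.93 in LT-HSC Hlf-high and 1.35 in Car1-high cells, and 1.37 in ST-HSC Hlf-high and 0.58 in Car1-high cells. Psmb10 per Psmb7 was 2.50 and 1.74 in the same LT-HSC groups, and 1.57 (1.51 to 1.64) and 1.21 (1.01 to 1.44) in those of ST-HSC. For these pairs the Hlf-high intervals of LT-HSC and ST-HSC did not overlap. They were 1.82 to 2.04 and 1.33 to 1.41 for Psmb9 per Psmb6. For Psmb10 per Psmb7 the LT-HSC interval was 2.29 to 2.73. The lower ratios did not hold for every pair at like depth: between Car1-high and Hlf-high cells of LT-HSC with 10000 to 25000 UMIs, the log2 ratio was 0.55 for Psmb8 and 0.78 for Psmb5, but 0.67 for Psmb9 and 0.52 for Psmb6, and 0.39 for Psmb10 and 0.24 for Psmb7.

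**Figure D4:**
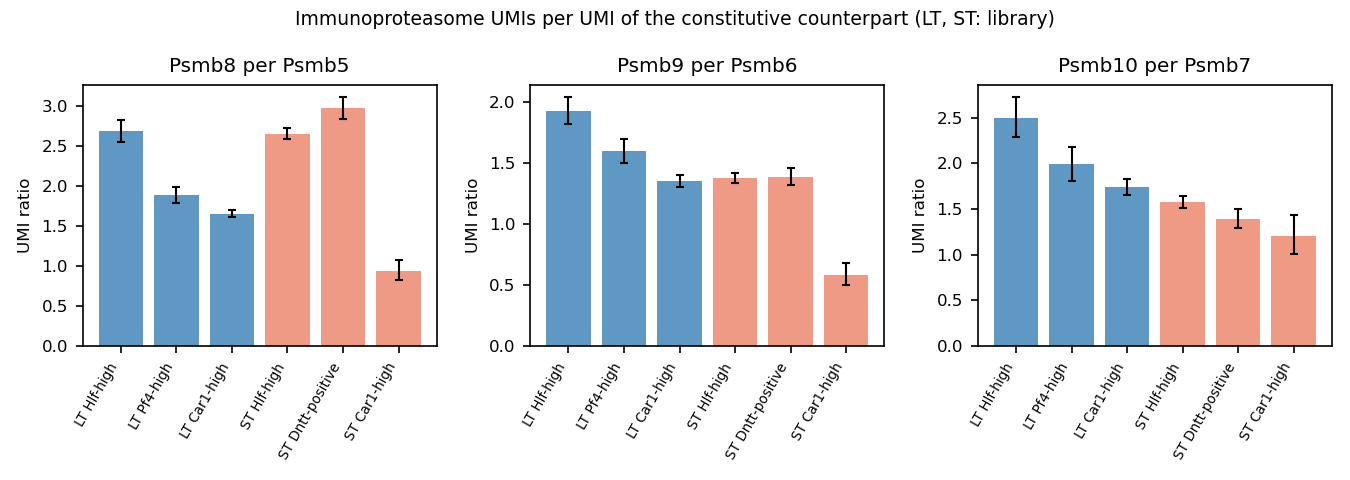
UMIs of Psmb8, Psmb9 and Psmb10 per UMI of Psmb5, Psmb6 and Psmb7 (vertical axes, from 0) in the cell groups of LT-HSC (blue) and ST-HSC (orange), with 95% counting intervals. Psmb8 per Psmb5 is 2.68 and 2.65 in the Hlf-high cells of LT-HSC and ST-HSC and lowest, at 0.94, in the 42 ST-HSC Car1-high cells.

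In Pf4-high cells of LT-HSC the 26S subunits were mostly higher as well. Each of the 31 had a smaller ratio than in Car1-high cells except Psmd8, a lid subunit (1.86 against 1.54). The 26S median log2 ratios were 0.53 in Pf4-high and 0.82 in Car1-high cells. Among cells with 10000 to 25000 UMIs they were closer, at 0.48 and 0.57. Against the same Hlf-high cells, which both comparisons share, 35 of 48 members were higher and 2 lower in Pf4-high cells. The shares of all genes were 22.4% and 42.0%. Medians on the log2 scale were 0.47 over members and -0.19 over all genes. All 31 subunits of the 26S had ratios above 1, and 28 were called higher. All 8 lid subunits were among them, led by Psmd13, a structural lid subunit, from 62.2 to 127 CPM, a ratio of 2.05 (1.85 to 2.26). Psmb3 was the highest core subunit at 1.96 (1.84 to 2.08). The 26S subunits under the limit were Psmb2 at 1.19, Psmd4 at 1.21 and Psmc6 at 1.11. Psme4 was lower at 0.66 (0.59 to 0.72), and Psma8 was lower at 0.780 (0.603 to 1.002), an interval that includes equal levels. Psmc3ip had the highest ratio, 2.70 (2.17 to 3.37). Psmb8, Psmb9 and Psmb10 had ratios of 1.11, 1.12 and 1.18 and were not called, and Psme1 was at 1.01 (0.97 to 1.05). Psmf1 was at 0.98 (0.82 to 1.17), which turned to a log2 ratio of 0.22 under TMM. With TMM factors the median of all genes was 0.06 and 53.7% of called genes were higher, against 34.7% in the main scaling (56.1% with median-of-ratios factors), and 31 of 31 subunits of the 26S were higher. Pf4-high cells had a median of 24360 UMIs, and 48.1% were past 0.4% in the cell cycle lists; among cells under that value 28 of 31 subunits of the 26S were higher, with a median log2 ratio of 0.47 beside -0.17 over all genes, and at 10000 to 25000 UMIs 26 of 31, beside 23.4% of all genes.

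Dntt-positive cells of ST-HSC differed little from Hlf-high cells of that library. A further 704 ST-HSC cells were past both the Dntt and the Hlf cut and were in neither group. The 805 cells compared here are therefore only the Dntt-positive cells below the Hlf cut. Of 48 members, 3 were higher and 2 lower, beside 8.56% and 19.0% of all genes. All 31 subunits of the 26S had a ratio above 1, but their median was only 1.09 and a single one, the ATPase Psmc4 at 1.254 (1.171 to 1.343), was called higher. Psmg3, an alpha ring chaperone, was at 1.26 (1.14 to 1.39) and Psmc3ip at 1.40 (1.23 to 1.58). Psmb8 was at 443 CPM (437 to 449) in Hlf-high and 528 CPM (516 to 540) in Dntt-positive cells, a ratio of 1.19 (1.16 to 1.22), within the limits. Psmb10 was at 0.97 (0.92 to 1.02), which turned above 1 under TMM, at a log2 ratio of 0.03. Psme4, at 136 CPM in Hlf-high and 102 CPM in Dntt-positive cells, was lower at 0.75 (0.70 to 0.79), as it was in Car1-high and Pf4-high cells against the Hlf-high cells of their libraries. Psma8 was lower at 0.56 (0.40 to 0.75). Of all called genes, 31.1% were higher in the main scaling, 46.0% with TMM and 47.2% with median-of-ratios factors. Median UMIs were 11200 in Hlf-high and 15566 in Dntt-positive cells, and 24.6% and 43.6% were past 0.4% in the cell cycle lists. Under that value 0 of 31 subunits of the 26S were higher, with a median log2 ratio of 0.08, beside 8.20% of all genes. At 10000 to 25000 UMIs it was 0 of 31 as well, with a median of 0.06, beside 7.17% of all genes.

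Between the libraries as a whole, members were lower in ST-HSC. Of 48 members 29 were lower and 1, Psme4, was higher, beside 23.0% of all genes lower and 38.5% higher, and the median log2 ratio was -0.39 over members and 0.12 over all genes. The 26S subunits had 19 of 31 lower and none higher, with a median ratio of 0.76. The lowest 26S subunit was Psmd11, a lid subunit, from 177 CPM in LT-HSC to 108 CPM in ST-HSC, a ratio of 0.61 (0.60 to 0.63). Among the chaperones Psmg2 was at 0.58 (0.56 to 0.60). Psmb8 went from 599 CPM in LT-HSC to 487 CPM in ST-HSC, a ratio of 0.81 (0.80 to 0.82), and Psmb9 was at 0.70 (0.69 to 0.72). Psme4 went from 83.2 CPM in LT-HSC to 115 CPM in ST-HSC, a ratio of 1.39 (1.34 to 1.43). Psmb7 was at 1.04 (1.01 to 1.07), which turned below 1 under TMM and median-of-ratios factors, at log2 ratios of -0.08 and -0.09. These factors lowered the share of called genes that were higher from 62.6% to 49.9% and 48.7%. They raised the lower 26S subunits to 25 of 31. Among cells with 10000 to 25000 UMIs, 13 of 31 were lower and 1 higher, with a median log2 ratio of -0.28. Among cells under 0.4% in the cell cycle lists, 21 were lower and 0 higher. Kept LT-HSC cells had a median of 17595 UMIs, against 13402 for ST-HSC. Their median mitochondrial shares were 1.60% against 3.47%, and the part of that difference was not tested.

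The libraries hold different cells, 458 of 2722 being Car1-high in LT-HSC and 42 of 6648 in ST-HSC, so the comparison was repeated within Hlf-high cells. There 9 members were lower and 4 higher, beside 25.9% and 28.3% of all genes, and the 26S median was -0.14 on the log2 scale. The lowest were Psma8, from 17.0 CPM in LT-HSC to 6.51 CPM in ST-HSC, a ratio of 0.38 (0.32 to 0.46), Psmd12 at 0.70 (0.66 to 0.75) and Psme1 at 0.73 (0.71 to 0.75). Psme1 went from 583 CPM in LT-HSC to 426 CPM in ST-HSC. The 4 higher members were Psmc3ip at 1.60 (1.33 to 1.94), Psme3 at 1.45 (1.26 to 1.67), Psmb7 at 1.33 (1.22 to 1.44) and the lid subunit Psmd13 at 1.27 (1.17 to 1.38). Psmg2 and Psmb3, among the lowest over all cells, were at 0.93 (0.85 to 1.02) and 0.99 (0.94 to 1.04). Psme4 was at 1.12 (1.05 to 1.19). Of Hlf-high cells, 24.6% in ST-HSC and 4.88% in LT-HSC were past 0.4% in the cell cycle lists; among those under that value 11 members were lower and 3 higher, beside 25.3% and 27.2% of all genes. Library and group are the same thing in this design, so a difference between the 2 libraries and one between the sorted populations cannot be told apart.

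**Figure D5:**
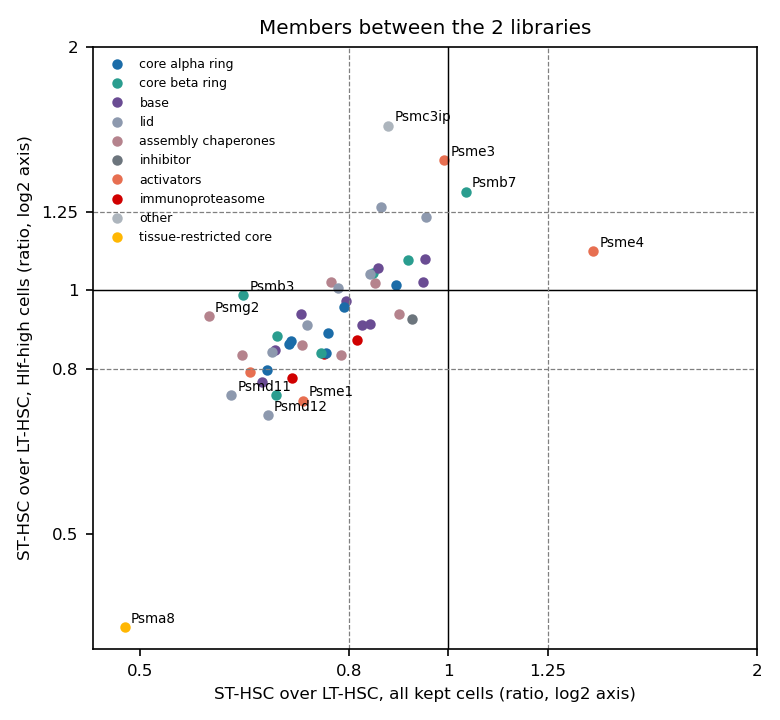
Ratio of ST-HSC over LT-HSC for the 48 members, over all kept cells (horizontal axis) and within Hlf-high cells (vertical axis), both on log2 axes and coloured by role, with dashed lines at 20% lower and 25% higher. Most points lie left of 0.8 on the horizontal axis and between the lines on the vertical axis; Psme4 is at 1.39 over all cells and 1.12 within Hlf-high cells.

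Cycling cells were compared with the others in ST-HSC, because the cell groups differ in cycling. The 133 cells with at least 1% of UMIs in the S and G2/M lists were mostly marked by G2/M genes, whose summed level was 7765 CPM, with the S phase list at 2335 CPM. The other 6234 cells were not free of cycling: their S phase list was at 2041 CPM, and 33.7% passed the lower cell cycle limit used above. The cut of 1% called only 1 of 456 LT-HSC Car1-high cells cycling, although 68.9% passed the lower limit. The contrast therefore says little about the cycling difference between the cell groups. Of 48 members 4 were higher and 4 lower, beside 17.3% and 19.8% of all genes, and 0 of 31 subunits of the 26S passed either limit. The highest were Psmf1 at 1.60 (1.36 to 1.88) and the base chaperones Psmd10 at 1.54 (1.29 to 1.82) and Psmd9 at 1.45 (1.26 to 1.67). The lowest were Psmb8, from 493 CPM in other cells to 331 CPM in cycling cells, a ratio of 0.67 (0.63 to 0.71), Psme1 at 0.73 (0.69 to 0.78) and Psmg4 at 0.70 (0.60 to 0.80). The summed erythroid markers were at 5012 CPM in the cycling and 1420 CPM in the other cells, and their part in these values was not tested. At 10000 to 25000 UMIs, 12 members were lower and 2 higher, beside 21.1% and 23.5% of all genes, and Psmf1 turned to a log2 ratio of -0.13. Of the 31 subunits of the 26S, 5 were lower and 0 higher in that depth range.

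Other genes of the pathway moved less uniformly than the subunits. Of 36 measured genes of a ubiquitin and proteasome list, 14 were higher and 10 lower in LT-HSC Car1-high over Hlf-high cells, beside 24.3% and 54.0% of all genes, with a median ratio of 1.14. The ubiquitin receptor Adrm1, a subunit of the cap outside the symbol pattern, went from 48.0 to 102 CPM, a ratio of 2.13 (1.94 to 2.35), and the core assembly factor Pomp from 249 to 366 CPM, a ratio of 1.47 (1.40 to 1.53). Sem1, a small lid subunit, was at 1.21. Txnl1, a thioredoxin bound to the proteasome, had the highest ratio of the list at 2.25 (2.16 to 2.35). Nfe2l1, the transcription factor NRF1 that is known to induce proteasome genes, was lower, from 46.8 to 28.5 CPM, a ratio of 0.61 (0.54 to 0.69), and in ST-HSC with the looser cuts it was at 0.61 (0.51 to 0.71). Of 10 genes of class I peptide supply and its regulators, 1 was higher and 4 lower in LT-HSC, beside those same shares of all genes. The peptide transporter genes Tap1 and Tap2 had ratios of 0.90 (0.84 to 0.97) and 0.65 (0.60 to 0.71) in LT-HSC, and 0.76 (0.70 to 0.82) and 0.47 (0.42 to 0.52) in ST-HSC with the looser cuts. All of these ratios are scaled by total UMIs. In the LT-HSC comparison the median log2 ratio of all genes moved from -0.44 to 0.21 with TMM and 0.29 with median-of-ratios factors. By that shift Nfe2l1 and Tap2 of LT-HSC would lie within the limits and Tap1 would be higher. Their direction in LT-HSC therefore depends on the scaling.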

How the data were processed

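Single-cell RNA was measured in 2 libraries, 1 per group, and the authors deposited UMI counts per gene and cell, made with Cell Ranger 7.2 and the mm10 build per the submitters' processing notes, while the file headers name Cell Ranger 7.1.0. No row without a gene name was present, and no doublet removal is given in the sources used here. Raw counts were summed over the cells of a group and divided by the group's total UMIs (CPM). CPM carry exact Poisson intervals and ratios exact conditional binomial (Clopper-Pearson) intervals, both at 95% and for counting error only; with 1 library per group no test was possible. Cells were kept at 1000 genes or more and under 10% mitochondrial UMIs. Cycling was called from the S and G2/M lists at 1% of UMIs with cells thinned to 5000 UMIs; 68 cells of LT-HSC and 281 of ST-HSC were shallower and got no call.

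Members, gene lists, cell groups and tests were chosen with earlier results of these data known. The named-gene rule covered the catalytic pairs, Psme1, Psme2, the 3 highest and 3 lowest members per comparison by the interval bound nearest 1, members under the filter, and 6 genes outside the members; other genes named were chosen after their values were seen, as were the looser Car1 and Hlf cuts, the Car1 bins, the catalytic ratios, the cell cycle limit of 0.4% and the depth range. Scrublet's automatic threshold marked 7 LT-HSC cells and 0 ST-HSC cells and was taken not to have worked; doublets were kept, and an alternative left out the 40 and 353 cells with the highest scores. The other alternatives were TMM and median-of-ratios scaling, no expression filter, the mean of per-cell CPM, limits of 1.5, other cuts, cycling cells left out, every deposited barcode and barcodes of both libraries left out. The ratio script was tested on simulated data. Gene positions came from GENCODE annotation of GRCm38, in which all 50 members were found, and promoters from RefSeq for GRCm38.p6. Python 3.11.15, numpy 2.4.6, scipy 1.17.1, pandas 2.3.3, scanpy 1.11.5, matplotlib 3.10.9 and, for TMM factors alone, edgeR 4.0.16 were used.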

Additional observations from a re-analysis of the deposited data

Results flagged for a closer look

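For 3 members the ratio of Car1-high over Hlf-high cells, with the looser cuts, lay above 1 in LT-HSC and below 1 in ST-HSC. The difference between the libraries was not tested, since each group is 1 library. The log2 ratio was 1.119 higher in LT-HSC for Psmb8, 0.5605 higher for Psmb9 and 0.2188 higher for Psme1. With TMM factors the opposite directions held for Psmb8 and, barely, for Psmb9 (-0.03 in ST-HSC), and did not hold for Psme1 (0.18); with median-of-ratios factors only Psmb8 kept them, with Psmb9 at 0.03 and Psme1 at 0.24.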

How the results depend on the processing

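No paired analysis was possible because each group is 1 library. Of the counts of members called, 144 recomputed values stayed within 1.5 times the reported count and 26 did not. With call limits of 1.5, ST-HSC over LT-HSC gave 0 higher and 9 lower over all cells (24.9% and 10.3% of all genes) and 1 higher and 1 lower in Hlf-high cells (15.6% and 12.6%); Pf4-high cells gave 15 higher and 1 lower (13.4% and 28.9%), Dntt-positive cells 0 higher and 1 lower (3.14% and 8.04%), and cycling cells 2 higher and 0 lower (8.11% and 9.16%). With TMM and with median-of-ratios factors alike, Hlf-high cells of ST-HSC had 5 members lower, Pf4-high cells 1 lower and Dntt-positive cells 6 higher. Without the expression filter, ST-HSC over LT-HSC had 2 higher and the looser ST-HSC Car1 comparison 5 lower. With halved cuts, that is 1.5 for Hlf, Hlf-high cells of ST-HSC had 2 higher and Dntt-positive cells 1 lower. Pf4-high cells had 1 lower with the mean of per-cell CPM, under 0.4% cell cycle UMIs and at 10000 to 25000 UMIs, and Dntt-positive cells 1 lower under 0.4%. At 10000 to 25000 UMIs, cycling cells had 2 higher and 12 lower, Psma8 in Pf4-high over Hlf-high cells turned to a log2 ratio of 0.11, and Psmf1 in cycling cells to -0.13; the cause was not tested. The looser ST-HSC comparison was not run under 0.4% or at 10000 to 25000 UMIs, where a group held under 50 cells. Psmb11 and Psme2b had too few UMIs to pass the filter in any comparison at the main settings.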
